A study of Mus musculus with 24 samples.

Results

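Mitochondrial DNA (mtDNA) from mouse brain was compared with synthetic mtDNA after bisulfite treatment for 40 or 60 min, using 5 of the 24 libraries of the series. The 3 brain libraries come from 2 independent preparations of wild-type C57BL/6J brain, preparation 1 treated for 40 min (B1_40) and 60 min (B1_60) and preparation 2 for 60 min (B2_60). Synthetic mtDNA is a PCR product of almost the whole molecule, copied from native mtDNA with unmodified nucleotides and labelled with the same strain, and its single preparation was treated for 40 min (S1_40) and 60 min (S1_60). Brain mitochondria were purified by centrifugation and treated with a nuclease before their DNA was extracted and linearised with the enzyme BglII, so each brain library represents mtDNA of whole brain tissue and not of one cell type. The age, sex and number of the mice are not given in the sources used here. Each brain library was set against the synthetic library of the same duration. The comparison asks whether brain mtDNA holds cytosines read as unconverted more often than in a DNA without 5-methylcytosine (5mC).

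Bisulfite converts unmodified cytosine to uracil, whereas 5mC stays cytosine. The unconversion rate of a site is the percent of reads in which it is still read as C. Apart from counting error, this rate is an upper limit for the methylation of the site. Cytosines that fail to react for other reasons give the same reading, and a DNA without 5mC measures how often that happens. In mammalian nuclear DNA most 5mC lies in CG dinucleotides, and neurons also carry 5mC outside CG, mostly in CA. mtDNA is a small circle without histones that encodes subunits of respiratory complexes I, III and IV and of ATP synthase, with rRNAs and tRNAs, and its control region holds promoters and an origin of replication. Its strands differ in base composition. The L strand, which is the reference sequence, was 24.4% C and 12.4% G, and the H strand 12.4% C and 24.4% G.

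For each of 3890 L-strand and 1939 H-strand cytosines, the files give the unconversion rate and the number of reads over the site (coverage). Sites covered by at least 10 reads in each library of a comparison were kept. Cytosine calls per library numbered from 302234 in B2_60 to 2154500 in S1_60, with 916094 in B1_40, 1387432 in B1_60 and 950897 in S1_40. B2_60 stood apart in depth: 1197 of its L-strand sites reached a coverage of 10, against 2427 in B1_40, 2543 in B1_60, 2582 in S1_40 and 3060 in S1_60. Kept L-strand sites had a median of 25 reads in B2_60 and of 40 to 81 reads in the other libraries, and kept H-strand sites 94 reads in B2_60 and 251 to 634 reads in the others. A rate resting on 3 unconverted reads is 12% at the median L-strand coverage of B2_60 and 3.70 to 7.50% in the other libraries. The same number of reads is 3.19% on the H strand of B2_60 and 0.473 to 1.20% elsewhere. Reads carry no molecular identifiers and 1 read spans several cytosines, so intervals cover counting error only and neighbouring sites are not independent.

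The whole L strand differed little between brain and synthetic mtDNA in preparation 1. Over 2349 sites the mean unconversion rate was 29.50% in B1_40 and 29.33% in S1_40, a difference of 0.17 percentage points. Over 2538 sites it was 30.03% in B1_60 and 29.83% in S1_60, a difference of 0.20 points. B2_60 was higher, with 41.28% against 38.97% in S1_60 over the 1197 sites it covers, a difference of 2.31 points. These are means over sites that are mostly either converted or not, since the median site had a rate of 2.3% in B1_40, 1.9% in B1_60 and 7.7% in B2_60.

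At the 1197 sites covered in the 3 libraries of 60 min, the L-strand mean of the brain preparations was 40.14% ± 1.61 (SD, n = 2) and that of synthetic mtDNA 38.97%. The difference of 1.18 points was smaller than the SD of the brain preparations. Separately, an exact permutation test over preparations (two-sided) gave p = 0.667. With 2 preparations against 1, the smallest p that this test allows is 0.333, so it cannot pass 0.05, and after 40 min there is 1 library on each side and no test. At these sites B1_60 had 39.01% and B2_60 41.28%, so that B2_60 made up nearly all of the difference. The 2 synthetic libraries differed from each other by -1.13 points (27.70% in S1_40 and 28.83% in S1_60, 2579 sites). Weighting sites by their reads changed these values: pooled over calls, the L-strand difference was -1.83 points (95% Newcombe interval, -2.12 to -1.55) for B1_40, -5.68 points (-5.88 to -5.48) for B1_60 and 19.7 points (19.3 to 20.2) for B2_60. The pooled differences ran in opposite directions in the 2 brain preparations after 60 min, whereas the differences of means over sites, 0.20 and 2.31 points, did not. Each library was pooled with its own reads. A pooled difference therefore also depends on how the reads of the 2 libraries were spread over sites, which the intervals do not cover. The L-strand values include reads with mostly unconverted cytosines, which the study left out read by read before it calculated its rates.

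L-strand sites that stayed unconverted in synthetic mtDNA also did so in brain. Of the 495 sites with a rate of 90% or more in S1_40, 89.3% had such a rate in B1_40, and none was under 10% there. The shares were 94.0% of 530 sites for B1_60 and 98.2% of 383 sites for B2_60, again with none under 10%. In the other direction, 96.0% of 1462 sites under 10% in S1_40 were under 10% in B1_40, and of the corresponding sites of S1_60 98.3% of 1536 were so in B1_60 and 96.5% of 630 in B2_60. No site under 10% in synthetic mtDNA reached 90% in the brain library of its duration. Across sites, Pearson's r was 0.983 for B1_40 with S1_40 (n = 2349 sites), 0.989 for B1_60 with S1_60 (2538) and 0.986 for B2_60 with S1_60 (1197), a description of sites that share sequence and reads, beside 0.987 for S1_40 with S1_60 (2579). The middle class was the least stable, and 32.1% of the 184 sites at 10 to 90% in S1_60 were at 90% or more in B2_60, against 10.6% of 472 sites in B1_60.

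**Figure D1:**
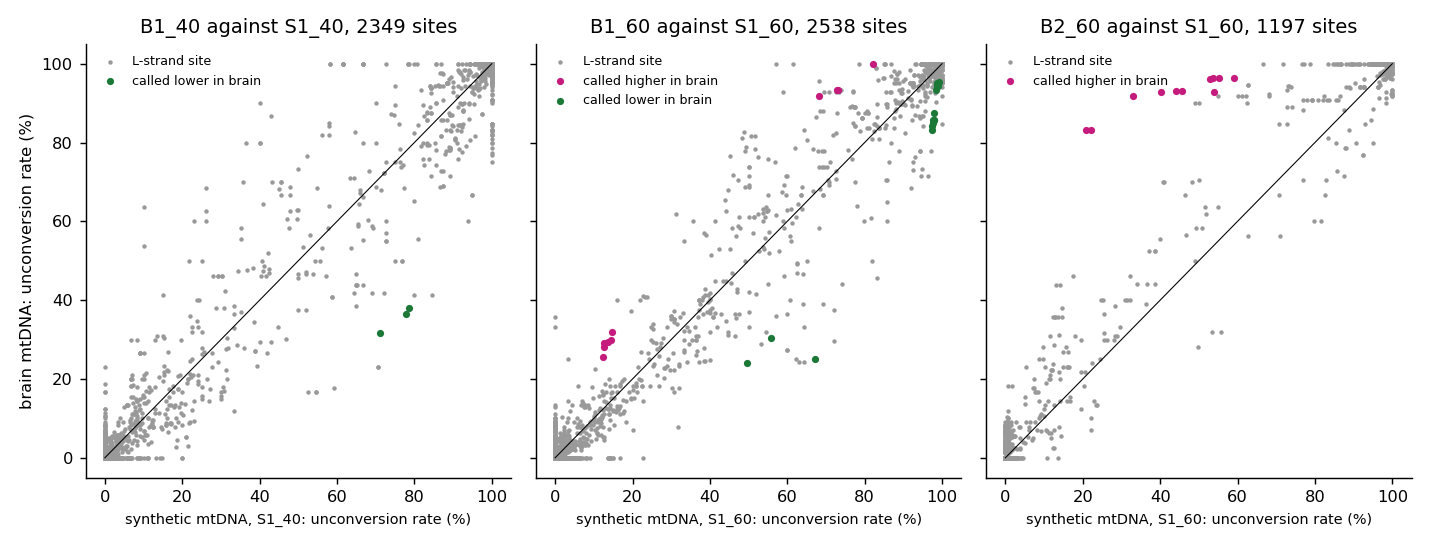
Unconversion rate (%) of each L-strand site in brain mtDNA (vertical) against synthetic mtDNA of the same duration (horizontal), for B1_40, B1_60 and B2_60, with the line of equal rates. Points gather at both ends of the line. Coloured points are sites called different by Fisher's exact test, 3 lower for B1_40, 10 higher and 16 lower for B1_60 and 11 higher for B2_60.

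Unconverted L-strand sites lay in stretches with few guanines in brain as in synthetic mtDNA. In the 41 bases centred on a site, the median share of G was 2.44% around sites of 90% or more, 7.32% around sites of 10 to 90% and 14.6% around sites under 10% in B1_40 and in B1_60, and the same 3 values held in S1_40 and in S1_60. In B2_60 the shares were 2.44, 4.88 and 14.6%. CG sites made up 1.42% of the L-strand sites of 90% or more in B1_40, 1.64% in B1_60 and 0.920% in B2_60, beside 1.79% in S1_40 and 1.89% in S1_60. They made up 9.24, 9.47 and 9.66% of the sites under 10% in the 3 brain libraries, in the same order. The L-strand sites read as unconverted in brain were thus poorer in CG than those read as converted, as they were in synthetic mtDNA. The G of a CG site is itself among the 41 bases, so the shares of G and of CG are not independent. The study relates wholly unconverted L-strand reads to the sequence of the strand. As another possibility it names copies of H-strand fragments without cytosine that align to the L strand. Neither was tested here.

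On the H strand nearly all cytosines were converted in both kinds of DNA. The mean unconversion rate was 0.749% in B1_40 and 0.612% in S1_40 (1874 sites), a difference of 0.14 points. It was 0.558% in B1_60 and 0.589% in S1_60 (1887 sites), a difference of -0.03 points, and 0.786% in B2_60 and 0.481% in S1_60 (1759 sites), a difference of 0.31 points. The sign was therefore not the same in the 3 libraries, nor in the 2 preparations after 60 min. Over the sites shared after 60 min, brain averaged 0.626% ± 0.226 (SD, n = 2) and synthetic mtDNA 0.481%. The difference of 0.15 points was smaller than the SD of the brain preparations, and the exact permutation test (two-sided) gave p = 1. At these sites B1_60, with 0.467%, lay below synthetic mtDNA and B2_60, with 0.786%, above it. Synthetic mtDNA itself differed by 0.05 points between its durations (1888 sites).

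The higher H-strand mean of B2_60 came with many sites at 0 and more sites at 5% or more. Of its 1759 covered sites 56.2% were at 0, against 36.0% of 1896 in B1_40, 34.1% of 1888 in B1_60, 44.6% of 1888 in S1_40 and 23.2% of 1927 in S1_60. At 48 sites of B2_60 the rate was 5% or more, beside 38 in B1_40, 20 in B1_60, 21 in S1_40 and 22 in S1_60. Rates of 10% or more were found at 5 sites of B2_60, beside 14 in B1_40, 10 in B1_60, 15 in S1_40 and 11 in S1_60. The highest rate of B2_60 was 12.5%, against 28.6 to 36.4% in the others. Each library is counted here over its own covered sites, so the sites are not the same. Counts at 0 and at 5% or more, and the overlaps given below, also depend on depth. Kept H-strand sites had a median of 94 reads in B2_60 and of 251 to 634 reads in the others, and 3 reads of 94 are already 3.19%. How much of the pattern in B2_60 comes with its depth was not tested. At the 1759 sites that B2_60 shares with S1_60, S1_60 had 1 site of 10% or more, beside the 5 of B2_60. At the 1759 sites covered in all 5 libraries, 6 of the 7 sites of 5% or more in S1_60 were also at 5% or more in B1_60 and in B2_60. These are 54.5% of the 11 such sites of B1_60 and 12.5% of the 48 of B2_60. The 10 H-strand sites with the highest mean rate in synthetic mtDNA averaged 8.62% in S1_40 and 5.91% in S1_60. On average brain was close to them, with means of 7.76% in B1_40, 5.94% in B1_60 and 6.49% in B2_60 over the same sites. Single sites could differ more. H14511 in CYTB had 23.9% in S1_40 and 6.7% in S1_60, but 6.0% in B1_40, 2.9% in B1_60 and 0% of 15 reads in B2_60. Closer values were found at H1766 in mt-Rnr2, the 16S rRNA gene, with 16.4% in B1_40, 10.8% in B1_60, 12.4% in B2_60, 14.9% in S1_40 and 11.1% in S1_60. This H-strand cytosine was thus read as C in over 10% of reads of all 5 libraries, synthetic DNA included.

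At CG sites, where most nuclear 5mC lies, the brain minus synthetic difference was smaller than at other sites in B1_40 and B2_60 and larger in B1_60, on both strands. The mean rate of H-strand CG sites was 0.511% in B1_40 and 0.395% in S1_40 (270 sites), 0.407% in B1_60 and 0.393% in S1_60 (271 sites), and 0.663% in B2_60 and 0.40% in S1_60 (255 sites). The differences of 0.12, 0.01 and 0.26 points stood beside 0.14, -0.04 and 0.31 points for the remaining (CH) sites of the same libraries. L-strand CG sites averaged 8.09% in B1_40 and 7.95% in S1_40 (151 sites), 9.45% in B1_60 and 9.01% in S1_60 (168 sites), and 9.69% in B2_60 and 8.66% in S1_60 (67 sites). L-strand CH sites averaged 30.97% against 30.80%, 31.49% against 31.30% and 43.15% against 40.76% in the same pairs. At CA sites of the H strand, the context of most non-CG methylation in neurons, the differences were 0.24 points (494 sites), -0.02 points (500 sites) and 0.45 points (457 sites). CC and CT sites together gave 0.09, -0.04 and 0.25 points in the same libraries. In B1_40 and B2_60 the difference was therefore larger at CA than at CC and CT sites, and in B1_60 it was below 0 at both. The difference between contexts was not tested, since each brain library has its own value and the preparations number 2.

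**Figure D2:**
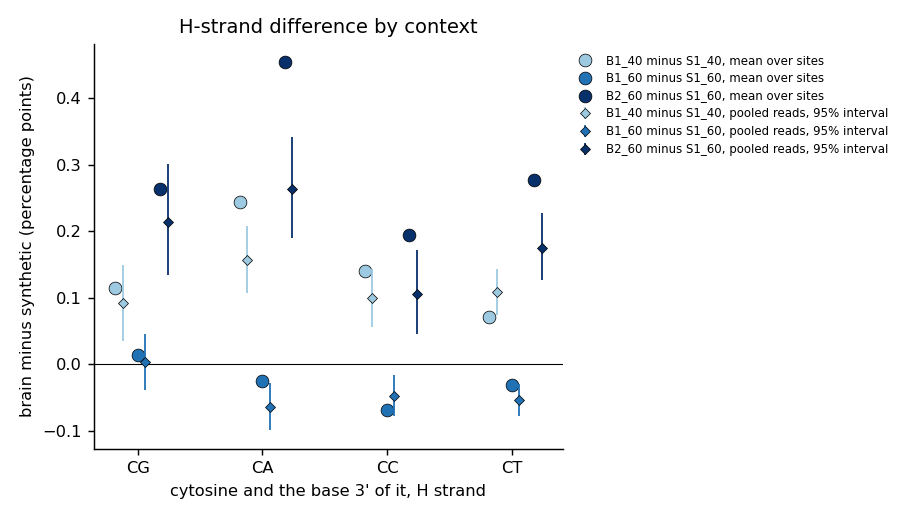
Brain minus synthetic difference of the H-strand unconversion rate (percentage points) for cytosines followed by G, A, C or T. Circles are means over sites for B1_40, B1_60 and B2_60, and diamonds are differences of pooled reads with 95% Newcombe intervals for counting error. B1_40 and B2_60 lie above 0 in all 4 contexts, and B1_60 lies at 0.01 points for CG and below 0 for the others.

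The reads limit how much higher brain could be at single sites. For the H strand, the upper end of the 95% Newcombe interval of brain minus synthetic was under 5 points at 81.5% of 1874 sites for B1_40, at 88.4% of 1887 for B1_60 and at 52.6% of 1759 for B2_60. At H-strand CG sites the shares were 84.4% of 270, 90.0% of 271 and 55.7% of 255. Over all H-strand sites the median upper end was 2.07 points for B1_40, 1.33 points for B1_60 and 4.78 points for B2_60. On the L strand the bound was under 5 points at 31.5, 41.4 and 28.2% of the sites. At most single L-strand sites the interval therefore did not exclude a larger difference. Among H-strand CG sites the largest observed difference was 7.1 points in B1_40, 2.4 points in B1_60 and 5.1 points in B2_60.

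Among H-strand CG sites covered in all 5 libraries, the 3 with the largest mean difference in preparation 1 were H5994 in COX1, H7464 in COX2 and H9366 in COX3, all in genes of cytochrome c oxidase subunits. H5994 was read unconverted in 5.2% of 153 reads of B1_40, in 0.0% of B1_60 and B2_60, and in 1.5% of S1_40 and 0.4% of S1_60. H7464 had 3.0% in B1_40, 1.7% in B1_60, 1.3% in B2_60, 0.5% in S1_40 and 1.2% in S1_60. H9366 had 2.9% of 34 reads in B1_40 and 0.0% in the other 4 libraries. B1_40 was the highest of the 5 libraries at each of these sites, and the adjusted p was 1 for each of them in all 3 comparisons (Fisher's exact test, Benjamini-Hochberg). Each is shown with 20 bases on either side on the H strand, 5′ to 3′, and the CG cytosine in capitals, because they had the largest mean differences of preparation 1 among H-strand CG sites covered in all 5 libraries. The sequences are from RefSeq mtDNA in build GRCm38 (mm10).
H5994 in COX1, chrM:5974-6014: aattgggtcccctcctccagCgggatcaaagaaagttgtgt
H7464 in COX2, chrM:7444-7484: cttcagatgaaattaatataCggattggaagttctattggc
H9366 in COX3, chrM:9346-9386: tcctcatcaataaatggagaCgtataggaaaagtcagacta

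The corresponding CG sites of the L strand were L7140 in COX2, L12541 in ND5 and L10074 in ND4L. L7140 was unconverted in 84.8% of B1_40, 93.1% of B1_60 and 88.2% of B2_60, against 76.0% of S1_40 and 76.9% of S1_60, with adjusted p of 1 after 40 min and 0.191 and 1 after 60 min for preparations 1 and 2 (Fisher's exact test). It was higher in 3 of 3 brain libraries, and the other native libraries of 40 or 60 min, from ESCs and liver, ranged from 72.7 to 91.8% there. At L12541 the rates were 78.3, 86.2 and 90.9% in the brain libraries and 76.2 and 79.3% in the synthetic ones. At L10074 they were 13.0, 5.4 and 17.6% against 4.9 and 7.3%, with B1_60 below S1_60. L7140 and L12541 were mostly read as unconverted in synthetic DNA as well, whereas L10074 was mostly converted there.

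Single sites were then tested between libraries with Fisher's exact test on unconverted and converted reads, with Benjamini-Hochberg adjustment over both strands and a threshold of 0.05. Such a test compares the reads of 2 libraries, not brain with synthetic mtDNA in general. Between B1_40 and S1_40, 0 of 4223 sites were higher in brain (0%) and 3 were lower (0.071%), with 46 higher and 55 lower at an unadjusted p under 0.05. Between B1_60 and S1_60, 11 of 4425 sites were higher (0.249%) and 17 lower (0.384%), with 97 and 105 at an unadjusted p under 0.05. Between B2_60 and S1_60, 13 of 2956 sites were higher (0.44%) and 0 lower (0%), with 137 and 6 at an unadjusted p under 0.05. The same test between libraries of like origin found 0 of 4467 sites between S1_40 and S1_60 (0%, with 149 at an unadjusted p under 0.05), 27 of 4204 between B1_40 and B1_60 (0.642%) and 20 of 2956 between B1_60 and B2_60 (0.677%). Brain libraries thus differed from each other at a share of sites no smaller than that at which they differed from synthetic mtDNA.

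The calls were few and clustered. Of the called sites, 0 of 3, 0 of 28 and 1 of 13 were CG sites. CG sites were also a small part of the sites tested, with 421 of 4223, 439 of 4425 and 322 of 2956. With so few runs, these counts do not set the called sites apart from the tested ones by context. On the L strand the called sites fell into 1 run for B1_40, 6 for B1_60 and 1 for B2_60, taking called sites within 50 bases as a run. The sites of a run are covered by the same reads, so a run is closer to 1 observation than to as many as it has sites. The runs are shown on the L strand, 5′ to 3′ with called cytosines in capitals, because they carry all L-strand calls of the 3 comparisons except the single sites L153 and L3497. They are in mt-Rnr2 (16S rRNA), ND2 and ND1 (subunits of complex I), CYTB (cytochrome b of complex III) and COX2 (a subunit of cytochrome c oxidase), from the same RefSeq sequence.
mt-Rnr2, lower in B1_40 and B1_60, chrM:1640-1717: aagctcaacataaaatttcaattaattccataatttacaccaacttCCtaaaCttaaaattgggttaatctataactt
ND2, lower in B1_60, chrM:4804-4897: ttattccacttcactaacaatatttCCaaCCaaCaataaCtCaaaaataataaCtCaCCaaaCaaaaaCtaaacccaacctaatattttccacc
CYTB, higher in B1_60, chrM:14827-14893: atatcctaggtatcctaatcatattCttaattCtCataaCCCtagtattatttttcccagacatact
COX2, higher in B1_60, chrM:7130-7195: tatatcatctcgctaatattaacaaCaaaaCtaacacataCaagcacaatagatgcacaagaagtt
ND1, higher in B2_60, chrM:3207-3288: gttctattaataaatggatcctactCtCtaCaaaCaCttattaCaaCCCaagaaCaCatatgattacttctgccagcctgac

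These stretches were 5.13% G in mt-Rnr2, 0% in ND2, 5.97% in CYTB, 9.09% in COX2 and 9.76% in ND1, all below the 12.4% of the whole L strand. The CG site L7140 lies in the COX2 stretch, before its called cytosines.

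Sites called in the same direction after 40 and 60 min in preparation 1 numbered 0 of 4145 for higher (0%) and 2 for lower (0.0483%). The comparisons after 40 and 60 min share no library, but they share the brain preparation and the synthetic preparation. Both sites called lower are in mt-Rnr2. L1686 was unconverted in 38.1% of 63 reads of B1_40, 30.3% of 76 reads of B1_60 and 32.0% of 25 reads of B2_60, against 78.6% of 70 reads of S1_40 and 55.7% of 167 reads of S1_60. All 3 brain libraries lay below both synthetic libraries. The differences from the synthetic library of the same duration were -40.5, -25.4 and -23.7 points, with adjusted p of 0.00649, 0.0463 and 0.874 (Fisher's exact test). L1692 had 31.7, 24.0 and 28.0% in the brain libraries and 71.2 and 49.7% in S1_40 and S1_60, with adjusted p of 0.0201, 0.0453 and 1. L1687 between them was called lower after 40 min, with 36.5% in B1_40 and 77.9% in S1_40, and had 28.9% in B1_60 and 53.3% in S1_60.

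The lower rates in brain were not limited to the called cytosines. The run lies at the 3′ end of a stretch of 48 bases, chrM:1645-1692, with 12 L-strand cytosines covered in all 5 libraries, and all 12 were lower in the 3 brain libraries than in the synthetic library of the same duration. The mean over the 12 was 67.8% in B1_40 and 88.6% in S1_40, and 62.2% in B1_60, 64.1% in B2_60 and 80.3% in S1_60. Differences at single cytosines ranged from -41.4 to -10.2 points for B1_40, from -25.7 to -8.0 points for B1_60 and from -23.7 to -8.3 points for B2_60. The stretch was chosen after its values had been seen. Past it, at L1709, the rates were 4.3% in B1_40, 0.0% in B1_60, 5.0% in B2_60, 4.3% in S1_40 and 1.3% in S1_60. The next covered cytosines up to L1819 stayed at or below 5.0% in every library.

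**Figure D3:**
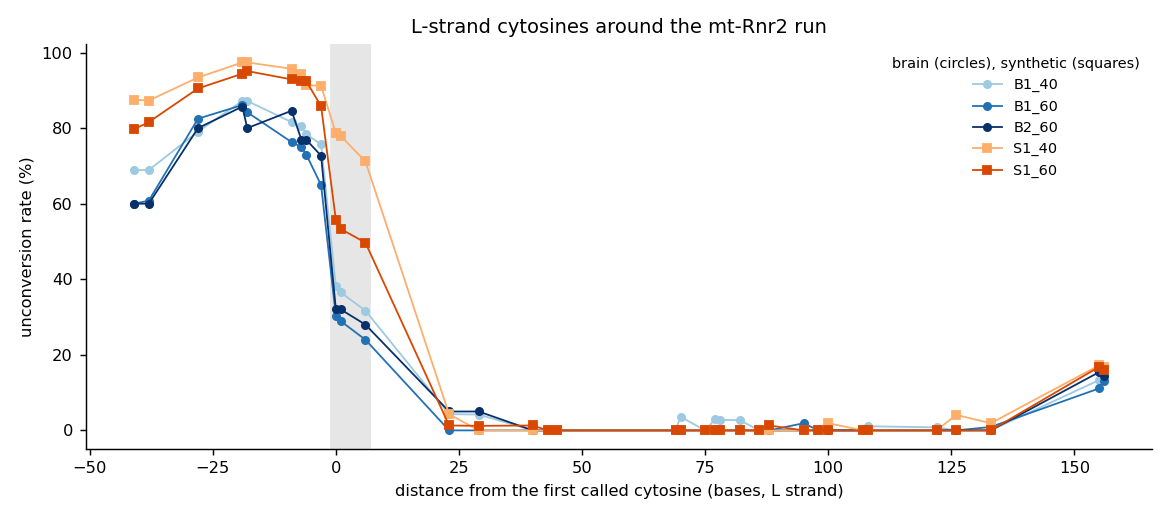
Unconversion rate (%) of L-strand cytosines around the run in mt-Rnr2 against the distance in bases from its first called cytosine, in B1_40, B1_60, B2_60, S1_40 and S1_60. The shaded band marks the 3 called cytosines. All 3 brain libraries run below both synthetic libraries to the left of and in the band, and all 5 libraries are at or below 5.0% from 23 to 133 bases.

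Values of the run in the other libraries are given as a description, since they are set beside the synthetic libraries that chose it. After 5 min its mean rate was 90.9% in brain preparation 1 and 93.8% in synthetic mtDNA, and after 15 min 49.2% and 82.3%. The 8 other native libraries of 40 or 60 min, from ESCs and liver, ranged from 27.9 to 53.3% with a median of 47.5%. 7 of these 8 lay below both synthetic libraries, which had 75.9% in S1_40 and 52.9% in S1_60, and the eighth, from ESC preparation 3, had 53.3%. S1_60 was below S1_40 here, with a difference of -23.0 points, beside differences between brain and synthetic mtDNA after 60 min of -25.2 points for B1_60 and -22.2 points for B2_60. Synthetic mtDNA is 1 preparation, so its value at this run rests on 1 PCR product.

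The runs in ND2, CYTB, COX2 and ND1 did not have the same direction in all 3 brain libraries. The 13 called sites of ND2 averaged 89.5% in B1_60 and 98.2% in S1_60, with adjusted p as low as 2.5e-15 (Fisher's exact test), whereas B1_40 had 95.8% and S1_40 96.8%, and B2_60 had 98.4%, above S1_60. The 8 other native libraries lay between 90.1 and 95.5%, all below both synthetic libraries. In CYTB the 6 sites averaged 28.9% in B1_60 and 36.1% in B2_60 against 13.4% in S1_60, but 9.1% in B1_40 against 15.8% in S1_40. The other native libraries spread over this range there, from 7.82 to 30.7%. In COX2 the 3 sites averaged 92.9% in B1_60, 91.9% in B2_60 and 71.4% in S1_60, but 76.7% in B1_40 and 86.9% in S1_40, with other native libraries from 69.0 to 92.7%. The CYTB and COX2 runs were therefore higher than synthetic mtDNA after 60 min and lower after 40 min.

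In ND1 the 11 sites called higher in B2_60 averaged 92.3% there, against 43.7% in S1_60, 43.5% in B1_60, 49.3% in B1_40 and 39.0% in S1_40. No other native library was above 56.9% at these sites. The coverage of B2_60 was 28 reads at the median of these sites and at most 29. A coverage minimum of 30 leaves all of them out before any test, so it cannot show whether their difference holds. With that minimum no site of B2_60 was called higher. In preparation 1 after 60 min, 2 single L-strand sites were also called: L153 in mt-Rnr1, the 12S rRNA gene, with 25% of 32 reads in B1_60 and 67.2% of 58 reads in S1_60, and L3497 in ND1, with 100% and 82.2%. At L153 B1_40 was lower as well, with 43.9% against 66.7% in S1_40.

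**Figure D4:**
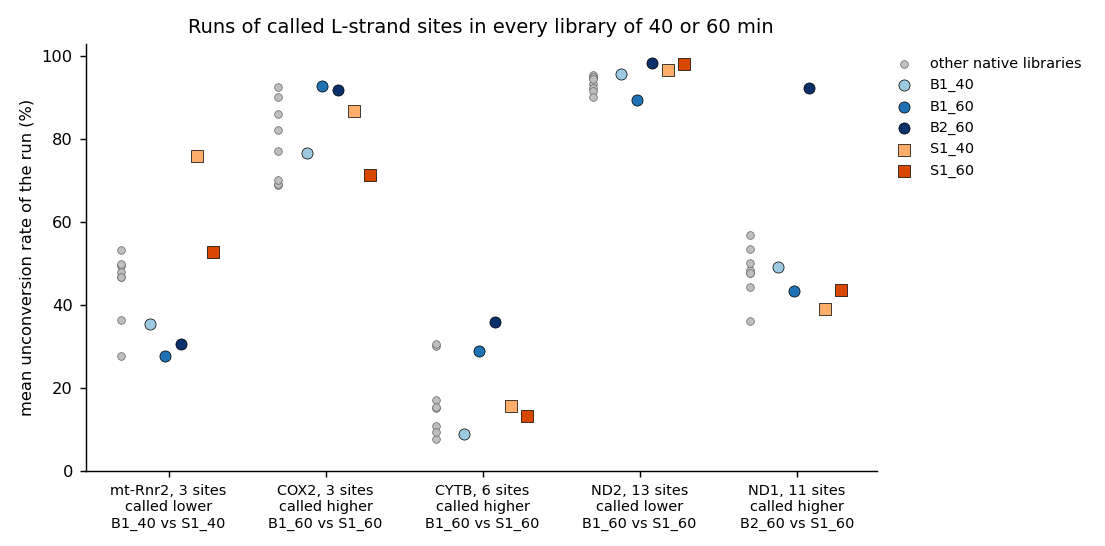
Mean unconversion rate (%) of each run of called L-strand sites in B1_40, B1_60 and B2_60 (blue circles), S1_40 and S1_60 (orange squares) and the 8 other native libraries of 40 or 60 min (grey). The label under each run names the comparison that chose it. In mt-Rnr2 all brain circles lie below both squares, and in ND1 B2_60 lies at 92.3%, above all other libraries.

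Calls on the H strand were 4 single sites. H553 in mt-Rnr1 was lower in B1_60 (0.7% of 1607 reads) than in S1_60 (2.8% of 1178 reads), with 1.4% in B1_40, 3.1% in B2_60 and 1.7% in S1_40. H12577 in ND5 was higher in B1_60 (0.9%) than in S1_60 (0.0%), with 0.8% in B1_40, 0.5% in B2_60 and 0.5% in S1_40. H3431 in ND1 and H6643, a CG site in COX1, were higher in B2_60 (3.7 and 3.4%) than in S1_60 (0.1 and 0.4%), while B1_60 had 0.2 and 0.5% there. Rates are given to 1 decimal, and within that rounding the calls at H12577, H3431 and H6643 were lost when the number of reads least favourable to a difference was used, whereas all L-strand calls and H553 remained.

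By gene group, over sites covered in all 5 libraries, the L strand had the same mostly unconverted groups (ATP synthase, complex I and complex III) in brain and synthetic mtDNA. Complex I genes (496 sites) averaged 70.5% in B1_40, 71.4% in B1_60 and 74.2% in B2_60, against 69.8% in S1_40 and 71.4% in S1_60. CYTB, the complex III gene (61 sites), averaged 64.7, 68.1 and 70.2% in the brain libraries and 63.8 and 64.6% in the synthetic ones. Complex IV genes (307 sites) were mostly converted, with 4.52, 4.78 and 6.24% in brain and 5.11 and 4.57% in synthetic mtDNA. The ATP synthase genes, which have 36 such sites, averaged 81.5, 89.6 and 96.7% in brain and 81.3 and 87.8% in synthetic mtDNA. For the rRNA genes (214 sites) the means were 5.86, 5.26 and 7.61% in brain and 6.72 and 6.40% in synthetic mtDNA. tRNA genes (44 sites) gave 7.22, 6.93 and 7.04% in brain and 7.45 and 7.03% in synthetic mtDNA. The tRNA mean rests on 3 sites of TrnE, which averaged 99.0 to 100% in the 5 libraries. Every other tRNA gene with such sites averaged at most 1.61% in each of them. B2_60 lay above S1_60 in each of these 6 groups, whereas B1_60 did so in 3 of them.

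Every group of H-strand sites averaged under 1.3% in all 5 libraries. The tRNA genes (159 sites) were above synthetic mtDNA in each brain library, with 0.989% in B1_40 and 0.687% in S1_40, and with 0.605% in B1_60 and 1.29% in B2_60 against 0.508% in S1_60. The complex IV genes (434 sites) were also above in each, with 0.539% in B1_40 and 0.485% in S1_40, and 0.465% in B1_60 and 0.908% in B2_60 against 0.452% in S1_60. The rRNA genes (237 sites) had 1.02% in B1_40 and 0.624% in S1_40, but 0.813% in B1_60 and 1.26% in B2_60 against 0.854% in S1_60. In the complex I genes (610 sites), CYTB (139 sites) and the ATP synthase genes (75 sites), B1_40 and B2_60 were above and B1_60 below synthetic mtDNA. H-strand coverage of the tRNA and rRNA genes was low, with medians between 0.21 and 0.45 times that of the strand in all 5 libraries.

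**Figure D5:**
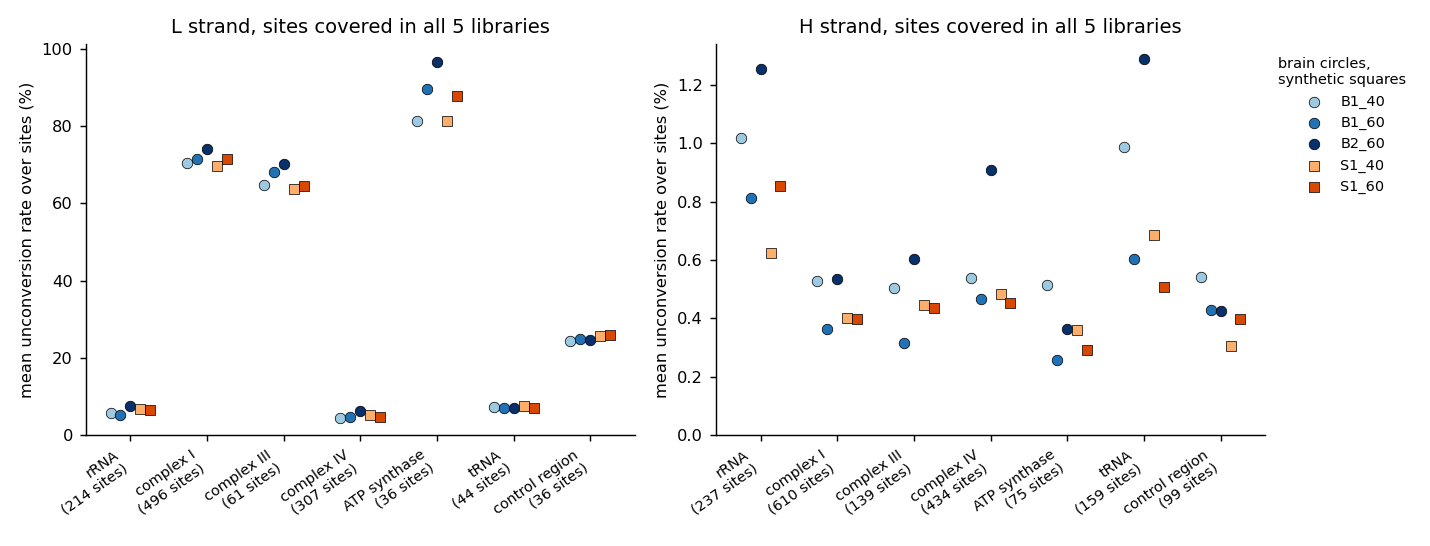
Mean unconversion rate (%) of the sites of each gene group and of the control region on the L strand (left) and H strand (right) in B1_40, B1_60, B2_60 (circles), S1_40 and S1_60 (squares), over sites covered in all 5 libraries. On the L strand complex I, complex III and ATP synthase genes lie above 60% in all libraries, and on the H strand all groups lie under 1.3%.

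Among single genes, 6 of 21 with L-strand sites were above synthetic mtDNA in all 3 brain libraries and 1 was below. Among 34 genes with H-strand sites, 10 were above and 2 below in all 3. For a gene group or gene, B1_60 and B2_60 share the synthetic library they are compared with. COX2 had the highest mean L-strand difference, from 8 sites that include those of the called run, with 78.4% in B1_40, 93.0% in B1_60 and 91.8% in B2_60 against 86.4% in S1_40 and 73.1% in S1_60. ATP6, a subunit of ATP synthase, came next, with 69.8, 83.0 and 97.2% in brain against 69.5 and 80.3% (22 sites). The lowest L-strand differences were in ATP8 (99.7, 99.9 and 95.9% against 99.9 and 99.7%, 14 sites) and mt-Rnr2 (6.89, 6.17 and 8.63% against 8.03 and 7.68%, 174 sites), neither below in all 3 libraries. On the H strand all 4 genes at the ends of the order were tRNA genes with 1 to 7 sites: TrnL2 (7 sites) and TrnF (4 sites) at the top and TrnT (1 site) and TrnD (5 sites) at the bottom. TrnL2, a leucine tRNA gene, had 1.91, 0.60 and 3.39% in brain against 0.343 and 0.0571% in synthetic mtDNA.

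Windows of 500 bp were compared per strand, each brain library against the synthetic library of its duration. Of 66 windows 21 (31.8%) were above synthetic mtDNA in all 3 brain libraries and 5 (7.58%) below. L-strand windows made up 10 of those above and 3 of those below, and H-strand windows 11 and 2. B1_60 and B2_60 were compared with the same synthetic library, so these counts rest on 2 synthetic libraries, and no test was made of them. Among L-strand windows, chrM:1501-2000 in mt-Rnr2, which holds the run above, was below by a mean of -4.09 points (17.5, 15.9 and 16.8% in brain against 22.1 and 20.2%, 55 sites). Among L-strand windows above synthetic mtDNA in all 3 brain libraries, the highest mean difference was in chrM:10501-11000 in ND4, with 99.6% in B1_40 and 76.3% in S1_40 but 97.1% in B1_60 and 95.8% in B2_60 against 94.1% in S1_60 (20 sites). Those of chrM:9501-10000 in ND3, TrnR and ND4L (11 sites) and chrM:8001-8500 in ATP6 (22 sites) followed, with means of 7.04 and 6.70 points. In chrM:8001-8500, B1_40 exceeded S1_40 by 0.36 points, B1_60 exceeded S1_60 by 2.78 points and B2_60 by 17.0 points.

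The mean differences of H-strand windows were under 1 point. Among those above synthetic mtDNA in all 3 brain libraries the highest, 0.49 points, was in chrM:1-500 (TrnF and mt-Rnr1, 65 sites), with 1.08% in B1_40 and 0.577% in S1_40, and 1.5% in B1_60 and 1.84% in B2_60 against 1.19% in S1_60. chrM:5001-5500, with 5 tRNA genes and the start of COX1 (81 sites), followed with 0.43 points and chrM:4001-4500 in ND2 (56 sites) with 0.33 points. Below were chrM:2001-2500 in mt-Rnr2 (10 sites), at 0% in all 3 brain libraries and at 0.260% in S1_40 and 0.0700% in S1_60, and chrM:14501-15000 in CYTB (62 sites), with a mean difference of -0.11 points.

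The L strand of the control region, chrM:15423-16299, showed no common direction over the sites of each pair. It averaged 16.2% in B1_40 and 11.9% in S1_40 (148 sites), a difference of 4.29 points. After 60 min the differences were -1.68 points in B1_60 (14.2% against 15.9%, 152 sites) and -1.20 points in B2_60 (24.7% against 25.9%, 36 sites). At the 36 sites covered in all 5 libraries the 40 min difference was -1.31 points (24.4% in B1_40 and 25.7% in S1_40). Brain averaged 24.8% ± 0.12 (SD, n = 2) over these sites after 60 min against 25.9% in synthetic mtDNA, a difference of -1.12 points (exact permutation test, two-sided, p = 0.333, the smallest it allows). The L-strand windows chrM:15501-16000 and chrM:16001-16299 lay below synthetic mtDNA in all 3 brain libraries, by means of -0.93 points (28 sites) and -2.05 points (8 sites).

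For the H strand of the control region the differences were 0.21 points for B1_40 (0.517% against 0.303%, 104 sites), 0.03 points for B1_60 (0.407% against 0.378%, 104 sites) and 0.03 points for B2_60 (0.425% against 0.397%, 99 sites). After 60 min brain averaged 0.426% ± 0.00143 (SD, n = 2) against 0.397%, again at the smallest p of the exact permutation test, 0.333. All 3 brain libraries were thus above the synthetic library of their duration, by less than the difference between S1_40 (0.306%) and S1_60 (0.397%, 99 sites) after 60 min and by more after 40 min. No control region site was called in any of the 3 comparisons.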

How the data were processed

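The values come from PBAT libraries, in which adaptors are attached after bisulfite treatment. The authors sequenced them on a MiSeq, trimmed the first reads with Trim Galore, aligned them to mm10 mtDNA using Bismark in its PBAT mode and derived cytosine states with Perl scripts; tool versions are not given in the sources used here. The deposited unconversion rate is the percent of covering reads in which a cytosine stayed unconverted, to 1 decimal and uncorrected. The deposited coverage is a count of reads per cytosine, without normalization. Single reads are not in the files used, so the study's removal of almost wholly unconverted reads could not be repeated, and L-strand rates include such reads. λDNA reads were not analysed here.

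Groups, preparations and durations were taken from the labels, and no pair of libraries had identical coverage. Rates of a strand, region or window of 500 bp are means over sites covered by at least 10 reads. Unconverted reads were taken as rate times coverage, rounded. Means after 60 min were compared over preparations by an exact permutation test (two-sided), and sites between libraries by Fisher's exact test with Benjamini-Hochberg adjustment (threshold 0.05), with 95% Newcombe intervals for differences. Python 3.11.15, scipy 1.17.1 and limma 3.58.1 (R 4.3.3) were used, and the site tests were checked on simulated data. Named sites were those called in the same direction after 40 and 60 min and the 3 CG sites per strand with the largest mean difference in preparation 1, among sites covered in all 5 libraries. Named genes were the 2 highest and 2 lowest per strand by mean difference, and named windows up to 3 per strand and direction. Other called sites and their runs (called sites within 50 bases) were singled out after their values were seen. So were H1766, H14511, the L-strand sites of TrnE and the stretch in mt-Rnr2. The comparisons, gene groups and lists were chosen with earlier results of these data known. The alternatives are given with their effects in the closing section, and the least favourable rounding of the rates was added after seeing the data.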

Additional observations from a re-analysis of the deposited data

Results flagged for a closer look

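4 results differed in direction between durations, with brain on one side of synthetic mtDNA after 40 min and on the other after 60 min in both preparations. These differences between durations were not tested, since there is 1 library per preparation and duration and B1_60 and B2_60 share S1_60. In the control region of the L strand, the brain minus synthetic difference was 4.295 points for B1_40, -1.684 points for B1_60 and -1.2 points for B2_60. These values come from 148, 152 and 36 sites, and at the 36 sites covered in all 5 libraries the differences were -1.31, -1.03 and -1.20 points, with the same direction at both durations. For the L strand of the complex IV genes it was -0.5922 points for B1_40, 0.2153 points for B1_60 and 1.675 points for B2_60.

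In the COX2 run of 3 called L-strand sites the difference was -10.17 points for B1_40, 21.5 points for B1_60 and 20.5 points for B2_60. The CYTB run of 6 called sites had -6.733, 15.52 and 22.65 points in the same order. Both runs were chosen for being higher in B1_60 than in S1_60, so that direction is given by the choice, and in the COX2 run S1_60 minus S1_40 was -15.5 points.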

How the results depend on the processing

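Of the alternatives tried, 65 were counted as keeping a result and 18 as moving it. A count was kept if it stayed within 1.5 times its value. A difference after 60 min was kept if its direction held, however much its size changed. A difference after 40 min was kept only if it changed by no more than the counting error in the Newcombe interval of the pooled difference. The L-strand and control region L-strand differences after 40 min changed sign under some of the 18. The H-strand difference after 60 min changed sign under 1 more, without brain preparation 2. The cause was not tested for any of them, except that coverage minimums leave fewer sites. The L-strand difference after 40 min (0.17 points) was -0.11 points with a coverage minimum of 20, -0.22 points with 30, -1.83 points with pooled calls and 1.79 points over each library's own sites. That of the control region after 40 min (4.29 points) was -1.31 points at sites covered in all 5 libraries and 1.16 points with a minimum of 20. The H-strand difference after 40 min (0.14 points) was 0.18 and 0.16 points with minimums of 20 and 30 and 0.16 points at sites under 10% in synthetic mtDNA. After 60 min it ranged from -0.0303 points without brain preparation 2 to 0.31 points without preparation 1. The L-strand difference after 60 min (1.18 points) was 0.54 and 0.11 points with minimums of 20 and 30, 6.00 points with pooled calls, 6.57 points over own sites, 0.55 points at sites under 10%, and 0.20 to 2.31 points when either preparation was left out, which also changes the sites compared (2538 without preparation 2).

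Sites lower in B1_60 fell from 17 to 11 with a minimum difference of 5 points, and sites higher in B2_60 from 13 to 0 with a coverage minimum of 30. That minimum leaves out every site of the ND1 run before any test, since they had at most 29 reads in B2_60. The 2 sites lower at both durations became 0 with preparation 2 in place of preparation 1 after 60 min, and 0 with limma on the empirical logit of the 5 libraries. In either direction limma called 0 of 2955 sites (110 higher and 27 lower at an unadjusted p under 0.05, smallest adjusted p 0.697). It treats the 2 durations of brain preparation 1, and those of the single synthetic preparation, as separate samples. The 5 windows below synthetic mtDNA became 3 of 60 and 2 of 56 with minimums of 20 and 30, 12 of 121 with windows of 250 bp, 12 of 66 without brain preparation 2 and 2 of 53 at sites under 10% in synthetic mtDNA. No paired analysis was possible because synthetic mtDNA is 1 preparation, so that the groups share 1 replicate number.

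Depth limited single L-strand sites most, above all in B2_60, and synthetic mtDNA has no second preparation to give its spread.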
